A study of Mus musculus with 4 samples.

Results

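*Mucl2*, *Prol1*, *Pip*, *Car6* and *Lpo* are 5 genes for secreted products of serous salivary cells, and they were taken by symbol from the 32285 genes listed in the deposited single-cell matrix, where 5 rows matched. The scRNA-seq was made from the submandibular glands (SMG) and sublingual glands (SLG) of untreated wild-type female C57BL/6N mice aged 6 to 8 weeks. The labels name 2 mice and 4 samples of both glands, while the methods of the study name another number of mice. Fresh tissue was dissociated with collagenases, hyaluronidase, dispase and pancreatin before 3' capture on the 10x Genomics platform. All 15707 barcodes are distinct, share a single suffix and cannot be assigned to a mouse, a gland or a labelled sample, so the matrix was treated as 1 sample and no test was run. Intervals below are exact 95% intervals for counting error only.

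Salivary acini are clusters of secretory cells that release a primary fluid into ducts, and serous acinar cells fill it with watery, protein-rich secretion while mucous cells add large gel-forming mucins. Part of that protein defends the mouth: lactoperoxidase oxidises thiocyanate with hydrogen peroxide to make an antibacterial product, carbonic anhydrase VI is a secreted enzyme that acts on bicarbonate, and prolactin-inducible protein binds oral bacteria. *Mucl2* and *Prol1* encode small mucin-like and proline-rich secreted products. *Car6* encodes carbonic anhydrase VI, *Pip* the prolactin-inducible protein, and *Lpo* lactoperoxidase.

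The 5 genes lie on 5 chromosomes, all are protein-coding, and none overlaps another gene in GENCODE M21 on GRCm38, the assembly also called mm10. *Mucl2* (ENSMUSG00000036925) is at chr15:103895855-103899312 on the minus strand, *Prol1* (ENSMUSG00000064156) at chr5:88317312-88328814 on the plus strand, *Pip* (ENSMUSG00000058499) at chr6:41847535-41852065 on the plus strand, *Car6* (ENSMUSG00000028972) at chr4:150187015-150201332 on the minus strand, and *Lpo* (ENSMUSG00000009356) at chr11:87806428-87828289 on the minus strand. Of the 31-base words in the last 500 bases of their transcripts, 1 of 877 of *Mucl2* also occurred in another gene, its neighbour *Mucl1*, and none of the other 4 genes shared any. The promoters of *Mucl2*, *Prol1*, *Car6* and *Pip* are shown because *Prol1* and *Car6* stayed within a narrow range of ratios to *Mucl2* over the named cell classes and *Pip* did not. Each is the 150 bases before the RefSeq start on GRCm38.p6, written 5' to 3' on the strand of the gene, and capitals mark the motifs searched.

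Mucl2: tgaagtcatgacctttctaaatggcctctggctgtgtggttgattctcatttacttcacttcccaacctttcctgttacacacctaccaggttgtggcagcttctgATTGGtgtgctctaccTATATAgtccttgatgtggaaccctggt
Prol1: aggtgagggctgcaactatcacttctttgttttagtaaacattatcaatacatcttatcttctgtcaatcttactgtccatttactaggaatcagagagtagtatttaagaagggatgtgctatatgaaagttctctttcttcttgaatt
Car6: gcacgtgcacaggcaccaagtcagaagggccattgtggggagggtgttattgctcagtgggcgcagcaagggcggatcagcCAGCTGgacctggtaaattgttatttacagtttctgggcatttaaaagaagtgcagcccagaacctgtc
Pip: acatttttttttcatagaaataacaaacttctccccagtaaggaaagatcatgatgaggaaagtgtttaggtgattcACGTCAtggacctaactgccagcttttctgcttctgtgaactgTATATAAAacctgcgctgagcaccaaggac

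These windows are chr15:103899313-103899462, chr5:88317162-88317311, chr4:150201136-150201285 and chr6:41847399-41847548 in that order. The RefSeq starts of *Car6* and *Pip* differ from the GENCODE ones: the *Car6* window lies within the gene span given above, and the *Pip* window runs into its own. The motifs were searched on both strands. They were TATAAA with its variant TATATA for the core promoter, then CAGCTG as an E-box word, with CATATG as another E-box word, CCAAT as the word of the CAAT box, and finally TGACGT as a word of cyclic AMP response elements. *Mucl2* held TATATA beginning 28 bases before the start and CCAAT, on the other strand, at 44 bases. *Pip* held TATAAA at 28 bases, an overlapping TATATA at 30 bases and TGACGT, on the other strand, at 73 bases. *Car6* held CAGCTG at 69 bases, and the printed window of *Prol1* held no match. Within the 250 bases used for the shares below, *Pip* held another TATAAA at 225 bases and *Car6* a CCAAT match at 183 bases. Over 32851 RefSeq promoters, 250 bases before the start held TATAAA in 12.4%, TATATA in 5.25%, CAGCTG in 13.0%, CATATG in 3.46%, CCAAT in 33.8% and TGACGT in 6.47%. The matches describe letters and not bound sites. Similar ratios of *Prol1* and *Car6* to *Mucl2* were also found in cells that should lack these genes, and shared regulation was not tested.

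A UMI is a tag on 1 captured RNA molecule, and since 3' ends are counted the UMIs of different genes were compared without division by length. The matrix holds 125100595 UMIs, with 1374 to 141509 per barcode and a median of 2608. *Mucl2* had 51586353 of them, or 41.2%, the highest of all genes. *Pip* had 1986452 (rank 8), *Prol1* 1769846 (rank 9) and *Car6* 1093804 (rank 10), whereas *Lpo* had 10575 and ranked 391. Together the 5 genes took 45.1% of all UMIs. At least 1 UMI of *Mucl2* was present in 100% of barcodes, of *Pip* in 98.2%, of *Prol1* in 98.0%, of *Car6* in 94.8% and of *Lpo* in 22.2%. A UMI of these genes therefore did not mark the cell as a producer, and levels were read against cells that should lack them.

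The cells were clustered with the 5 genes left out of the variable genes, and 9 classes were named from markers. The UMIs of the 5 still counted in the totals used to normalize the other genes, so the clusters were not independent of them. The 2050 serous acinar-like cells had 6 of 11 serous markers, among them the water channel *Aqp5*, the secretory cell factor *Bhlha15* and 3 secretoglobins, while *Cldn10*, *Lman1l*, *Bpifa2*, *Slc12a2* and *Chrm3* did not meet the marker criterion. The 529 Dcpp-rich acinar-like cells were named from *Dcpp1*, *Dcpp2* and *Dcpp3*, which encode secreted demilune cell and parotid proteins. The 143 mucous acinar-like cells had 8 of 8 mucous markers, including the gel-forming mucin *Muc19*. A cluster of 235 cells led by *Smgc*, a submandibular secreted product of early acinar and intercalated duct cells, had markers of several lists and was left without a class name. Another 6 unnamed clusters had a median under 500 genes, and in all 7129 barcodes (45.4%) were unnamed and held 24.7% to 27.7% of the UMIs of each of the 5 genes. Their depth and the small number of genes move together with the missing name, and their part in the levels below was not tested. Serous acinar-like cells had a median depth of 28107.5 UMIs, Dcpp-rich cells 23823, mucous cells 5096, the *Smgc*-led cluster 3328 and lymphoid-like cells 1866.

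Among the named classes, each of the 5 genes was highest in serous acinar-like cells. Of the unnamed clusters, cluster 16 had a higher level of *Mucl2*, at 6815 UMIs per 10000 UMIs. In serous acinar-like cells the level of *Mucl2* was 5936 UMIs per 10000 UMIs (5934 to 5938), so that 59.4% of the UMIs of the class came from this gene. *Pip* was at 223 per 10000 (222.0 to 223), *Prol1* at 198 (198.0 to 199), *Car6* at 125 (125 to 125) and *Lpo* at 1.22 (1.19 to 1.24). The class held 68.4% to 70.2% of all UMIs of each gene. In single cells of the class, *Mucl2* ran from 439 to 74669 UMIs with a median of 15638, *Pip* from 9 to 5477 with a median of 499, *Prol1* from 9 to 2742 with a median of 492, and *Car6* from 2 to 2047 with a median of 346. Every serous acinar-like cell thus carried at least a few UMIs of these 4 genes. *Lpo* ran from 0 to 49 UMIs with a median of 3, and 83.4% of the cells of the class had a UMI of it.

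Lymphoid-like cells, which should lack the 5 genes, gave the free RNA level, the RNA released into the suspension that enters droplets with any cell. They carried a mean of 221 UMIs of *Mucl2* per cell (220.5 to 222), 7.50 of *Prol1* (7.35 to 7.66), 6.66 of *Pip* (6.52 to 6.81), 4.68 of *Car6* (4.56 to 4.81) and 0.0487 of *Lpo* (0.0371 to 0.0626). Medians were 119 UMIs of *Mucl2*, 4 of *Prol1*, 4 of *Pip*, 3 of *Car6* and 0 of *Lpo*. Neither scale was constant over the lymphoid, myeloid, vascular and mesenchymal-like classes. Between the lowest and the highest of these 4 classes, UMIs per cell differed 1.84-fold for *Mucl2*, 2.18-fold for *Prol1*, 2.11-fold for *Pip* and 2.13-fold for *Car6*, and the level per 10000 UMIs 1.47-fold, 1.72-fold, 1.69-fold and 1.70-fold. *Lpo*, with few UMIs, ran from 0.0230 to 0.115 UMIs per cell and from 0.0916 to 0.353 per 10000 UMIs. UMIs per cell are given below, with the values per 10000 UMIs where the choice of scale changes a call.

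Against the free RNA level, the serous acinar-like class carried 79.8 times the *Mucl2* UMIs per cell, 78.7 times the *Prol1*, 99.5 times the *Pip*, 79.5 times the *Car6* and 74.3 times the *Lpo*. All 5 genes were past 2-fold there, beside 52.5% of all genes measured in this comparison, where the median gene stood at a log2 ratio of 1.08. In the Dcpp-rich class 3 of 5 were past 2-fold (41.7% of all genes): *Pip* at 13.0 times, *Lpo* at 4.47 times and *Car6* at 2.04 times, with *Prol1* at 1.92 and *Mucl2* at 1.87 times. From medians *Pip* was at 11.5 times, *Mucl2* at 2.18, *Prol1* at 1.75 and *Car6* at 1.67 times, so that the call of *Car6* held for means only. In the *Smgc*-led cluster 1 of 5 was past 2-fold (39.9% of all genes), and it was *Pip*, at 12.0 times, with the other 4 genes between 1.28 and 1.37 times. In the mucous class all 5 were past 2-fold (54.1% of all genes), with *Pip* at 7.50 times and the others from 2.40 to 2.88 times. From medians *Pip* was at 4.25 times there, *Mucl2* at 2.35, *Prol1* at 2.0 and *Car6* at 1.67 times, and *Lpo* had only 19 UMIs in the 143 cells. In basal or myoepithelial-like cells all 5 were past 2-fold from means too (80.1% of all genes), at 2.16 to 3.95 times. A few cells carried these means: *Mucl2* had a mean of 479 UMIs, a median of 179.5 and a highest value of 20629, and the medians of *Mucl2*, *Prol1*, *Pip* and *Car6* were 1.33 to 1.75 times those of lymphoid-like cells, so that none of the 4 was past 2-fold. The count was 0 of 5 in ductal epithelial-like cells (57% of all genes), at 1.43 to 1.73 times. Its clusters differed: in the 528 cells of cluster 9 all 5 genes were past 2-fold from means, at 3.61 to 4.87 times. From medians *Prol1* was at 2.5 times there, *Pip* at 2.25, *Mucl2* at 2.06 and *Car6* at 1.67 times. Ductal clusters 3, 6 and 11 were at 0.788 to 1.47 times from means. The share of all genes past 2-fold was not taken for single ductal clusters.

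The scale changed many of these calls. Per 10000 UMIs the serous acinar-like class stood at 5.28 to 7.06 times the lymphoid-like level for the 5 genes, and *Pip* in the *Smgc*-led cluster at 6.30 times, both still past 2-fold. The 5 genes in ductal cluster 9 were at 2.02 to 2.73 times, past 2-fold on this scale too. The share of all genes past 2-fold over lymphoid-like cells was not taken per 10000 UMIs, so these values have no background beside them. *Pip* was at 1.18 times in the Dcpp-rich class, 1.43 times in the mucous class and 1.31 times in basal or myoepithelial-like cells, and was past 2-fold in none of the 3. *Mucl2* was at 0.169, 0.505 and 0.718 times in the same order. Depth differed between these classes and lymphoid-like cells, and its part in the values was not tested.

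**Figure D1:**
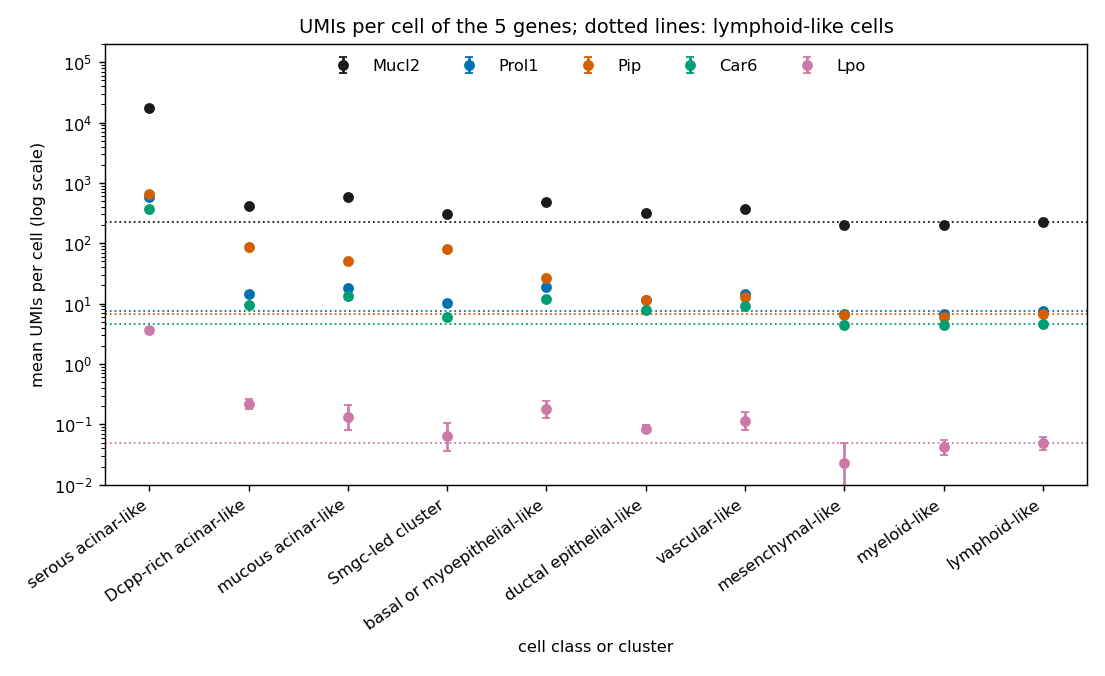
Mean UMIs per cell (log scale) of the 5 genes in 9 classes and the *Smgc*-led cluster, with exact Poisson 95% intervals, many smaller than the points; dotted lines give the lymphoid-like level of each gene. All 5 genes stand far above their lines in serous acinar-like cells, and *Pip* alone stands at 12.0 and 13.0 times its line in the *Smgc*-led cluster and the Dcpp-rich class.

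In the order of UMIs per cell over the named classes, *Mucl2* stood first in serous acinar-like cells at 17669 and second in mucous acinar-like cells at 585, followed by basal or myoepithelial-like cells at 479, Dcpp-rich cells at 414 and vascular-like cells at 369. Unnamed clusters 0, 1, 7, 10, 12, 16 and 18 carried 666 to 7188 *Mucl2* UMIs per cell, all above the mucous class. The lowest 2 classes, myeloid-like at 201.2 and mesenchymal-like at 200.8, had overlapping intervals. *Prol1* ran from 590 in serous cells to 18.8 in basal or myoepithelial-like and 18.0 in mucous cells, whose intervals overlapped, and vascular-like and Dcpp-rich cells at 14.6 and 14.4 could not be told apart either. *Pip* ran in another order: 662 in serous cells, 86.5 in Dcpp-rich cells, 80.1 in the *Smgc*-led cluster, 50.0 in mucous cells and 26.3 in basal or myoepithelial-like cells, each with an interval apart from the next. These orders are of means, and the intervals leave out the spread between cells. By medians serous cells were also first, but *Pip* was at 46 in Dcpp-rich cells and 56 in the *Smgc*-led cluster. The median of *Mucl2* was 259 in Dcpp-rich and 179.5 in basal or myoepithelial-like cells. *Car6* ran from 372 in serous cells to 13.5 in mucous and 11.9 in basal or myoepithelial-like cells, and Dcpp-rich and vascular-like cells overlapped at 9.56 and 9.28. *Lpo* was at 3.62 per serous cell and 0.217 per Dcpp-rich cell (0.179 to 0.261), and from there down each class overlapped the next.

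The ratio of each gene to *Mucl2* showed the same departure. Molecules from 1 pool of free RNA keep a fixed ratio in every cell they enter. In serous acinar-like cells there were 3.34 UMIs of *Prol1*, 3.75 of *Pip*, 2.11 of *Car6* and 0.0205 of *Lpo* per 100 UMIs of *Mucl2*, and in lymphoid-like cells 3.39, 3.01, 2.12 and 0.0220. Over all 9 classes and the *Smgc*-led cluster, *Prol1* stayed between 3.07 and 3.96 and *Car6* between 1.98 and 2.51. *Pip* stood between 3.01 and 3.75 in the serous, ductal, lymphoid, myeloid, vascular and mesenchymal-like classes. It reached 5.50 in basal or myoepithelial-like cells, 8.55 in mucous cells, 20.9 in Dcpp-rich cells and 26.5 in the *Smgc*-led cluster. *Lpo* was at 0.0525 in the Dcpp-rich class, from 115 UMIs in 529 cells.

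The high ratio of *Pip* was found in most single cells of the Dcpp-rich class and the *Smgc*-led cluster, and in a minority of mucous and of basal or myoepithelial-like cells. The median ratio over barcodes was 17.7 *Pip* UMIs per 100 of *Mucl2* in the Dcpp-rich class (5th to 95th percentile 3.78 to 94.7) and 27.4 in the *Smgc*-led cluster (3.31 to 147). It was 4.44 in mucous, 3.50 in basal or myoepithelial-like, 3.65 in serous and 2.82 in lymphoid-like cells, where the 95th percentiles were 47.1, 14.8, 6.84 and 5.88. A ratio of at least 10 was found in 358 of 529 Dcpp-rich cells, or 67.7% (63.5% to 71.6%), and in 182 of 235 cells of the *Smgc*-led cluster, or 77.4% (71.6% to 82.6%). The share was 21.0% in mucous cells (14.6% to 28.6%), 6.96% in basal or myoepithelial-like cells (4.03% to 11.1%), 0.390% in serous cells (0.169% to 0.767%) and 0.0811% in lymphoid-like cells (0.00205% to 0.451%). *Prol1* reached the same ratio in 0.378% to 3.04% of the cells of each class and *Car6* in 0% to 0.189%, where 0 of 143 mucous cells still allows up to 2.55%. Of the 962 barcodes of the whole matrix at or above it for *Pip*, 812 (84.4%) were in the Dcpp-rich class, the *Smgc*-led cluster or cluster 1, an unnamed cluster of few genes led by *Dcpp2*. The ratio was highest where *Mucl2* was near the free RNA level, so its size shows unequal amounts and is no measure of *Pip* output per cell.

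**Figure D2:**
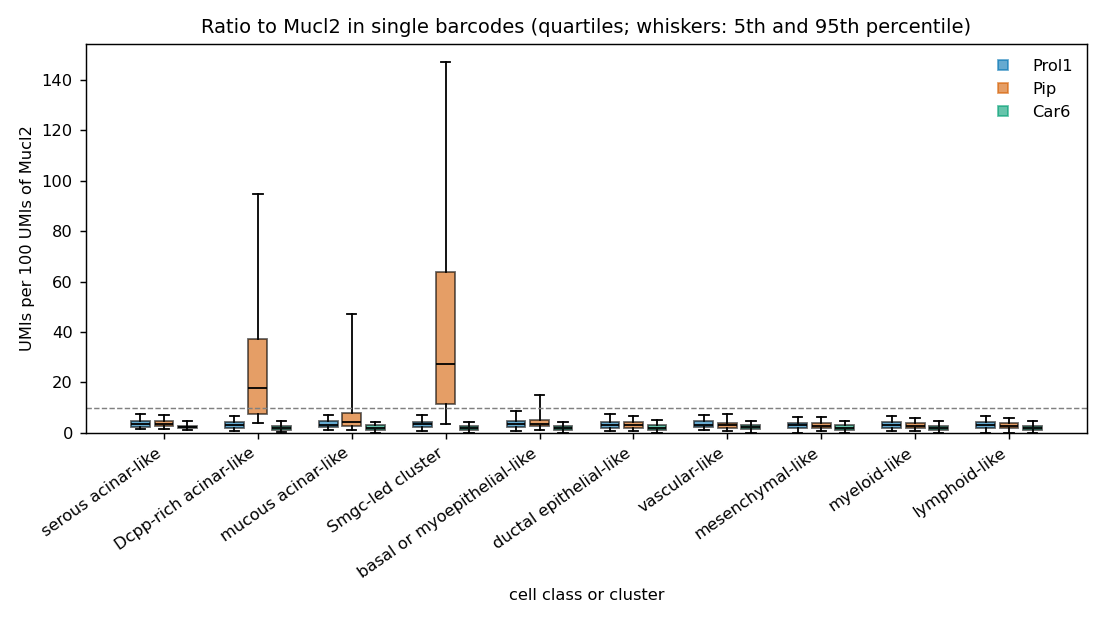
UMIs of *Prol1*, *Pip* and *Car6* per 100 UMIs of *Mucl2* in single barcodes of each class; boxes give the quartiles, black lines the median, whiskers the 5th and 95th percentiles, and the dashed line is at 10. *Prol1* and *Car6* stay low in every class, while the *Pip* median is 17.7 in the Dcpp-rich class and 27.4 in the *Smgc*-led cluster.

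The serous and the Dcpp-rich classes had similar depth and were compared directly, per 10000 UMIs. *Mucl2* was at 5936 against 178, or 33.4-fold higher in serous cells, *Prol1* at 198 against 6.17, or 32.2-fold, and *Car6* at 125 against 4.10, or 30.5-fold. *Lpo* was at 1.22 against 0.0932, or 13.0-fold, and *Pip* at 223 against 37.1, or 6.00-fold. All 5 were past 2-fold, beside 4.36% of the 6199 genes measured. In the Dcpp-rich cells the mean UMIs per cell of *Mucl2*, *Prol1* and *Car6* were within 2.04 times of the free RNA level. The part of free RNA in their folds was not tested.

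Of 33 other secreted salivary products listed, 32 names were in the matrix and 21 were measured, with 6 at least 2-fold higher in serous acinar-like cells, 8 at least 2-fold lower and 7 between. The missing name, *Spt1*, is a RefSeq synonym of *Mucl2* itself. The higher ones included the secretoglobins *Scgb2b26* (37.8-fold), *Scgb1b27* (16.6-fold) and *Scgb2b27* (6.58-fold), small secreted proteins that pair into dimers. *Scgb2b27* stood at 101 UMIs per 10000 in Dcpp-rich cells and *Scgb2b26* at 10.3, so that the secretoglobins too differed among themselves. Near-identical copies of secretoglobin and *Dcpp* genes may share reads, and their split is uncertain. The lower ones included *Dcpp1* to *Dcpp3* and the antibacterial *Bpifa2* and *Pglyrp1*; *Bpifa2* was at 0.812 in serous and 247 in Dcpp-rich cells, and *Pglyrp1* at 0.0546 and 22.8. The median log2 ratio of the 21 was -0.56, beside -0.19 for all genes measured. The 3 secretoglobins were among the markers that named the serous class, and *Dcpp1* to *Dcpp3* alone named the Dcpp-rich class. The direction of these genes followed in part from the naming, so their calls are no separate result.

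Secretory neighbours of the 5 on their chromosomes had few UMIs. *Mucl1*, beside *Mucl2*, had 1099 UMIs in the whole matrix and was 9.02-fold higher in serous than in Dcpp-rich cells. *Amtn*, next to *Prol1*, had 9 UMIs, and the peroxidase genes *Mpo* and *Epx* near *Lpo* had 3 and 0. *Sval2*, next to *Pip*, had 560 UMIs and was described after its values were seen. It had 0.169 UMIs per cell in serous cells, 0.162 in the *Smgc*-led cluster (38 UMIs), 0.0302 in Dcpp-rich cells (16 UMIs) and 0.00162 in lymphoid-like cells (2 UMIs). Of 20 listed neighbours and paralogs in the matrix, 3 were measured: *Mucl1* higher, the membrane carbonic anhydrase *Car12* 0.367 times its level in Dcpp-rich cells, and the cytosolic *Car2* at 0.977 times. Of 10 genes of the peroxidase system, which supply hydrogen peroxide or the anion that lactoperoxidase oxidises, only the chloride channel *Ano1* was measured, at 1.60 times. The dual oxidases *Duox1* and *Duox2* had 0 and 6 UMIs in serous acinar-like cells.

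Of 17 genes for acinar regulation and fluid secretion, 13 were measured, with 3 higher, 2 lower and 8 between. *Bhlha15*, a factor of secretory cell maturation and also a marker that named the serous class, was 3.67-fold higher in serous cells. The chloride importer *Slc12a2* was 2.26-fold higher and the adrenergic receptor *Adrb1* 5.17-fold, the last from 12 UMIs in Dcpp-rich cells. The stress and secretory factor *Xbp1* was 0.316 times and *Etv1* 0.393 times its level in Dcpp-rich cells. *Aqp5* was at 1.26 times and the potassium channel *Kcnn4* at 1.07 times. Dissociation stress genes differed as well: *Hspa1a* and *Hspa1b* were 4.35-fold and 4.84-fold higher in serous cells, whereas 5 immediate early genes, *Fos*, *Jun*, *Junb*, *Egr1* and *Atf3*, were 0.248 to 0.413 times their level in Dcpp-rich cells, and 3 of the 10 lay between. The part of these genes in the levels of the 5 was not tested.

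For the spread from cell to cell, the 2566 barcodes with at least 10000 UMIs were used, 16.3% of all barcodes with 69.0% of the UMIs. Just outside the limit lay 167 barcodes with 9000 or more but under 10000 UMIs, and just inside 109 with 10000 or more but under 11000. Depth and cell type are tied in this choice: 60.9% of these deep barcodes were serous acinar-like, 13.6% Dcpp-rich and 8.57% in unnamed cluster 0. *Mucl2* took at least 20% of UMIs with *Dcpp1* to *Dcpp3* under 20% in 2040 of them (79.5%), and *Dcpp1* to *Dcpp3* at least 20% with *Mucl2* under 20% in 440 (17.1%). Only 31 (1.21%) had both at 20% or more, and 55 (2.14%) neither. The deep barcodes thus fell into separate groups by their main product.

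**Figure D3:**
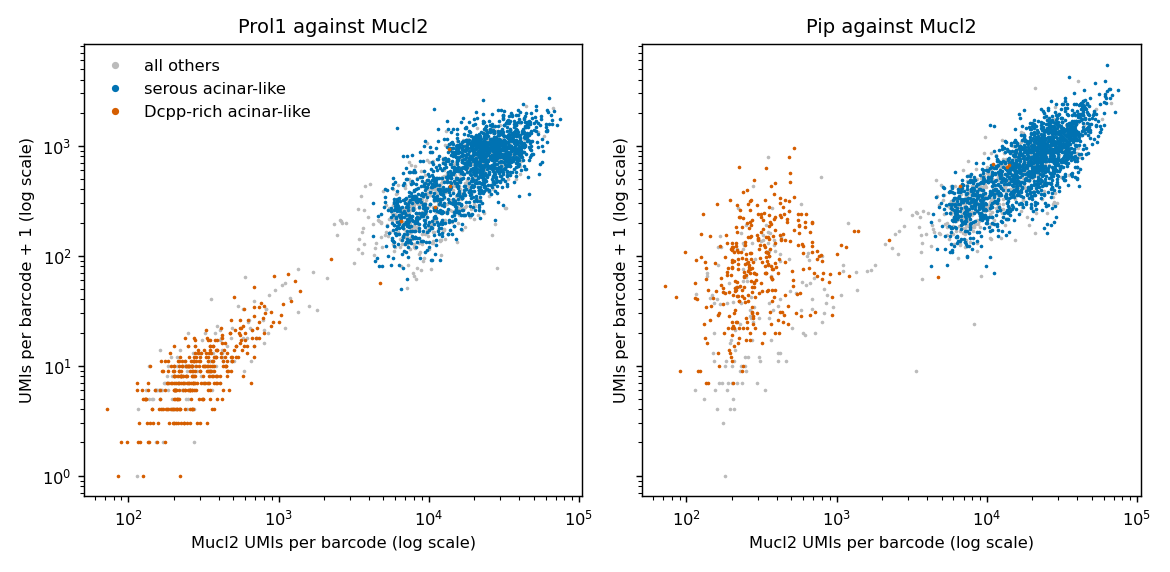
*Prol1* (left) and *Pip* (right), as UMIs plus 1, against *Mucl2* UMIs in each of the 2566 barcodes with at least 10000 UMIs, on log scales and coloured by class. On these counts, which carry the depth of the cell, both genes rise with *Mucl2* among serous barcodes; values per 10000 UMIs are given below and depend on the scale. Among Dcpp-rich barcodes *Prol1* continues along the same line, whereas *Pip* lies mostly above it, with some barcodes near it.

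Spread is given as the coefficient of variation (CV) of UMIs per 10000 left after the part due to counting was taken off. Over all deep barcodes it was 0.502 for *Mucl2*, 0.568 for *Pip*, 0.593 for *Car6*, 0.653 for *Prol1* and 0.854 for *Lpo*, beside a median of 0.969 over 540 genes. Within the 1562 deep serous barcodes it fell to 0.123 for *Mucl2*, lower than all but 11 of 486 genes. *Car6* had 0.311, *Pip* 0.371, *Prol1* 0.399 and *Lpo* 0.653, beside a median of 0.378 over these genes. The level of *Mucl2* ran from 2117 to 7940 per 10000 with a median of 5927, and its 5th and 95th percentiles, 4622 and 7019, were 1.52-fold apart. The percentiles were 2.64-fold apart for *Car6* (76.0 to 201), 3.38-fold for *Prol1* (95.4 to 322) and 3.55-fold for *Pip* (101 to 357). *Lpo* had a median of 1.04 per 10000, and 8.90% of these barcodes had no UMI of it.

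The low spread of *Mucl2* depended on the scale. Per 10000 UMIs outside the 5 genes, the CV of *Mucl2* in serous barcodes was 0.310, beside 0.271 for *Car6*, 0.360 for *Prol1*, 0.392 for *Pip* and 0.537 for *Lpo*. On that scale *Car6* and not *Mucl2* had the lowest spread of the 5, and the 5th and 95th percentiles of *Mucl2* were 9823 and 27411.

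In the 349 deep Dcpp-rich barcodes the CV was 1.76 for *Mucl2*, 2.24 for *Prol1*, 2.23 for *Car6* and 0.829 for *Pip*, beside a median of 0.292 over 541 genes. *Lpo* was under the minimum of 1 UMI per barcode, with 0.266, and no CV is given for it. *Pip* ran from 6 to 959 UMIs per barcode with a median of 81, and no barcode lacked it. *Mucl2* ran from 72 to 13951 with a median of 280. A few barcodes held the upper end: with the 5 barcodes at 1000 or more *Mucl2* UMIs per 10000 left out, a limit chosen after the values were seen, the CV fell to 0.766 for *Mucl2*, 1.05 for *Prol1* and 1.32 for *Car6*, and was 0.797 for *Pip*. *Pip* then stood at 32.9 UMIs per 100 of *Mucl2*. Between its 5th and 95th percentiles in all 349 barcodes, 5.96 and 92.0 per 10000, *Pip* differed 15.4-fold, so that the Dcpp-rich cells were far from uniform in it. Barcodes of 2 cells or of damaged cells were not identified, and their part was not tested.

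**Figure D4:**
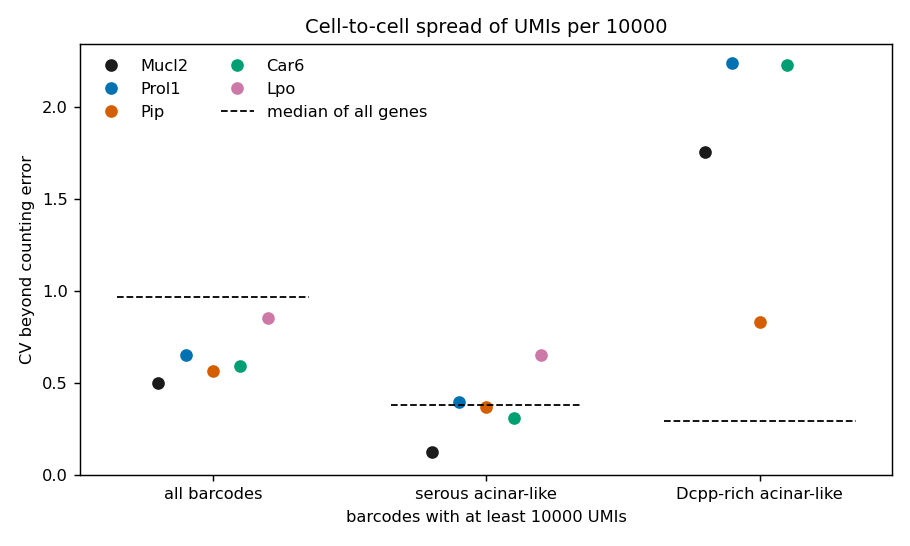
Coefficient of variation beyond counting error of UMIs per 10000 for the 5 genes in all, serous and Dcpp-rich barcodes with at least 10000 UMIs; dashed lines give the median over all genes of at least 1 UMI per barcode. *Mucl2* is lowest in serous barcodes at 0.123, and in Dcpp-rich barcodes *Pip* is lowest of the 4 genes plotted at 0.829; *Lpo* had under 1 UMI per barcode there and is not plotted.

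Co-variation was described by Spearman's rho over barcodes of the one matrix, which share depth and preparation. Over all 2566 deep barcodes the 10 pairs of the 5 genes had a median rho of 0.461, from 0.171 (*Mucl2* and *Lpo*) to 0.676 (*Prol1* and *Car6*). These values mix classes with very different levels. Of the 535 other genes, 0.187% had a rho of at least 0.3 with *Mucl2*, and of the 4 other members *Pip* alone did, at 0.386. Per 10000 UMIs outside the 5 the median was 0.562 and all 4 passed, beside 6.92% of other genes.

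Within the 1562 serous barcodes the median rho was 0.0652, and the signs depended on the scale. Per 10000 UMIs, *Mucl2* had a negative rho with *Car6* (-0.543), *Prol1* (-0.513), *Lpo* (-0.414) and *Pip* (-0.205). Per 10000 UMIs outside the 5, the rho was 0.104 with *Car6*, -0.0019 with *Prol1*, -0.228 with *Lpo* and 0.308 with *Pip*. Of the 481 other genes 0% reached 0.3 with *Mucl2* on either scale. The pair of *Prol1* and *Car6* was positive on both, at 0.364 and 0.192, and *Car6* and *Lpo* at 0.346 and 0.139. *Pip* had 0.0835 with *Prol1* and 0.121 with *Car6* per 10000 UMIs. On counts as they stand, which carry the depth of the cell, all 10 pairs were positive, from 0.276 to 0.809.

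Among the 349 deep Dcpp-rich barcodes *Mucl2*, *Prol1* and *Car6* moved together and *Pip* did not. These 3 genes had medians of 280, 8 and 5 UMIs per barcode here, beside 119, 4 and 3 in lymphoid-like cells. The part of free RNA in their co-variation was not tested. The rho was 0.742 for *Mucl2* and *Prol1*, 0.619 for *Mucl2* and *Car6*, and 0.570 for *Prol1* and *Car6*, while those of *Pip* with the 3 genes were 0.0376 to 0.0490. Of other genes 0.745% reached 0.3 with *Mucl2*. Without the 5 barcodes named above the first 3 values were 0.730, 0.602 and 0.551, and those of *Pip* 0.00962 to 0.0218. Per 10000 UMIs outside the 5 they were 0.744, 0.622 and 0.573, beside 1.3% of other genes at 0.3 or more with *Mucl2*. *Lpo* had 0.266 UMIs per barcode here, too few to read its values of 0.0735 to 0.131. The level of *Mucl2* fell with depth in these barcodes (rho -0.393 with total UMIs), as did *Prol1* (-0.267) and *Car6* (-0.235), whereas *Pip* had 0.103.

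**Figure D5:**
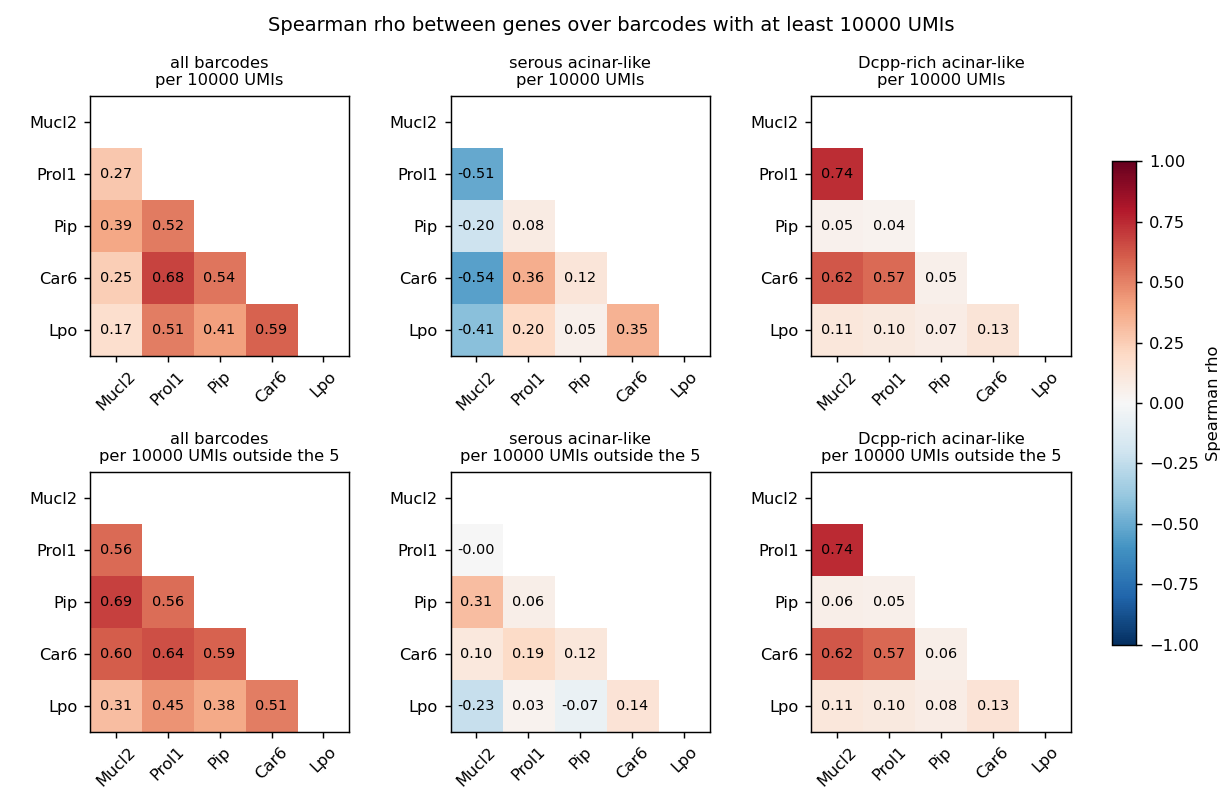
Spearman's rho between the 5 genes over barcodes with at least 10000 UMIs, in all barcodes, serous and Dcpp-rich classes (columns), per 10000 UMIs (top) and per 10000 UMIs outside the 5 genes (bottom). Pairs with *Mucl2* are negative in serous barcodes in the top row only, except *Lpo* (-0.228) and *Prol1* (-0.0019) below, and *Pip* is near 0 with the other genes in Dcpp-rich barcodes.

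Other genes that followed the members differed. In serous barcodes, per 10000 UMIs, *Prol1* had *Rpl32* (0.505) and *Rpl15* (0.451), ribosomal protein genes, among its highest rho. The highest rho were for *Car6* with *Scgb2b27* (0.490), the elongation factor *Eef1a1* (0.359) and the protein disulfide isomerase subunit *P4hb* (0.343), and for *Lpo* with *Tpt1* (0.368), *Eef1a1* (0.365) and *Scgb2b27* (0.364). *Pip* had *Scgb2b26* (0.256), *A630073D07Rik* (0.255) and *Scgb1b27* (0.203). Per 10000 UMIs outside the 5, the rho of *Rpl32* and *Rpl15* with *Prol1* was 0.407 and 0.367, while 0% of the 481 other genes reached 0.3 with *Car6*, *Lpo* or *Pip*, and the highest were *Kcnn4* for *Car6* (0.233) and *Scgb2b26* for *Pip* (0.274). The sum of the 3 secretoglobins turned from 0.371 to -0.191 with *Car6*, from 0.247 to -0.341 with *Lpo* and from 0.369 to -0.0998 with *Prol1* between the scales. With *Pip* it was positive on both, at 0.186 and 0.244. The highest rho for *Mucl2* per 10000 UMIs was 0.0046, with *Bglap3*, followed by *Tmem258* (-0.0154) and *Etfb* (-0.0370). *Mucl2* stood at -0.888 with the sum of the 3 secretoglobins, and at 0.0855 per 10000 UMIs outside the 5. On both scales a gene with a large share lowers the shares of the others. In serous barcodes the 3 secretoglobins had a median of 2542 UMIs per 10000, and the 5 genes took 64.8% of the UMIs of the class. The secretoglobins were thus most of the UMIs outside the 5, and the part of these shares in the signs was not tested. Per 10000 UMIs, the summed dissociation stress genes had a rho of -0.361 with *Mucl2*, 0.280 with *Prol1* and 0.283 with *Lpo*, and the mitochondrial share one of -0.281, -0.162 and 0.286.

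Over the 27 clusters, which share the free RNA, *Mucl2*, *Prol1* and *Car6* had nearly the same order of levels, with a rho of 0.970 for *Mucl2* and *Prol1*, 0.966 for *Mucl2* and *Car6* and 0.987 for *Prol1* and *Car6*. Their nearest genes were *Scgb2b26* (0.979, 0.980 and 0.984) and *Scgb1b27* (0.979, 0.975 and 0.980). Next came the major urinary protein gene *Mup5* for *Mucl2* (0.879) and *Prol1* (0.904) and *2310057J18Rik* for *Car6* (0.881). *Pip* and *Lpo* stood further off. *Pip* was at 0.711 to 0.724 with *Mucl2*, *Prol1* and *Car6*, *Lpo* at 0.706 to 0.779, and the 2 at 0.638 with each other. The nearest genes of *Pip* were the water channel *Aqp5* (0.902), *A630073D07Rik* (0.879) and *Wfdc12* (0.866). *Aqp5* had 6.15 UMIs per cell in serous, 3.83 in Dcpp-rich and 7.33 in mucous acinar-like cells, 1.92 in the *Smgc*-led cluster and 0.0730 in lymphoid-like cells. *Lpo* was nearest to *Agt* (0.819), which encodes angiotensinogen, *Bglap* (0.816) and *Esp8* (0.794).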

How the data were processed

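The authors deposited 1 matrix of UMI counts, not normalized, and the submitters' processing notes name Cell Ranger 6.0.1, Seurat 4.1.1 and mm10. The annotation version is not given in the sources used here. All barcodes were kept. The members and lists were chosen with earlier results of these data known. Clustering used Seurat 5.3.0 in R 4.3.3: log-normalization (scale factor 10000), 2000 variable genes less 21 for secreted proteins, members among them, 20 principal components and a resolution of 0.5. A marker counted when at least 25% of cells in a cluster had a UMI and its level exceeded that of all other cells. A name needed 3 markers (or the *Dcpp* genes), a median of 500 genes and no other list with more markers. It also needed 1 marker among the 10 leading genes or, without any, more than 2 times the markers of the next list. Cluster 22 (lymphoid-like) and cluster 19 (myeloid-like) were named in the last way. Genes with at least 100 UMIs over both classes were compared, and 2-fold was the call. Spread and rho used genes with at least 1 UMI per deep barcode, and the order over clusters those with at least 500 UMIs. Genes named are the 5, the 3 with the highest rho for each, and list genes; not every gene under this rule is reported here. Scrublet in scanpy 1.11.5 called 0 of 15707 barcodes doublets, so it did not work and no doublet was removed. Other steps used Python 3.11.15 (pandas 2.3.3, scipy 1.17.1, numpy 2.4.6) and plots matplotlib 3.10.9. The functions were tested on simulated data.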

Additional observations from a re-analysis of the deposited data

How the results depend on the processing

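Among the named classes, all 5 genes kept their highest level in the serous acinar-like class under the 6 alternatives tried (resolutions of 0.3 and 0.8, all variable genes kept, a filter at 200 genes and 20% mitochondrial UMIs that left 14849 barcodes, the highest Scrublet scores left out, and UMIs outside the 5 genes as the total). The median log2 ratio of the 5 to the free RNA level in that class was 6.31, and it was 6.44 with myeloid-like cells as the reference, 5.76 with vascular-like and mesenchymal-like cells, 6.24 and 6.21 at resolutions of 0.3 and 0.8, and 6.95 from medians over barcodes, an alternative chosen after seeing the data. *Pip* in Dcpp-rich cells was at 14.2 times the myeloid-like level, 8.81 times the vascular-like and mesenchymal-like level, and 11.5 times from medians; a resolution of 0.3 gave no Dcpp-rich class and so no value. Its ratio to *Mucl2* there was 20.9 per 100 summed and 17.7 as a median.

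The median CV of the 5 genes in deep barcodes was 0.593, with 0.718 from 5000 UMIs, 0.570 from 20000 UMIs, 0.647 per 10000 UMIs outside the 5 and 0.610 without the 237 deep barcodes of the highest Scrublet scores. The median rho was 0.461, with 0.581 from 5000 UMIs, 0.471 from 20000 UMIs, 0.394 after thinning to 10000 UMIs, 0.562 outside the 5, 0.824 as Pearson's r of log2 levels and 0.481 without the highest Scrublet scores. It was 0.0652 in serous barcodes alone and 0.0819 there outside the 5, the last chosen after seeing the data. No paired analysis was possible because the barcodes carry no replicate number. Depth limits *Lpo*, with at most 49 UMIs in a barcode.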

Other observations

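The unnamed clusters held the 5 genes in ratios that differed among them. Cluster 18, 149 barcodes led by *Myl9* and *Insig1* with a median of 14282 UMIs, had 7155 UMIs of *Mucl2* per cell and 3.87 of *Prol1*, 4.76 of *Pip*, 2.50 of *Car6* and 0.0258 of *Lpo* per 100 UMIs of *Mucl2*. Cluster 16, 206 barcodes with a median of 306.5 genes and 7402 UMIs, had 7188 UMIs of *Mucl2* per cell at 6815 per 10000 UMIs, above the 5936 of serous acinar-like cells. Per 100 UMIs of *Mucl2* it held 2.13 of *Prol1*, 2.76 of *Pip*, 1.24 of *Car6* and 0.0051 of *Lpo* (76 UMIs), each below the serous ratio. Cluster 25, 59 basal or myoepithelial-like cells with the contractile gene *Acta2*, had 37.8 UMIs of *Pip* per cell (36.3 to 39.4) beside 22.4 in cluster 17, the 171 other cells of that class.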
